A study of Mus musculus with 2 samples.

Results

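The clustered protocadherins of the mouse were taken as all genes whose symbol begins with Pcdha, Pcdhb or Pcdhg, and their levels were followed in RNA-seq libraries of cortical poly(A)+ RNA. The rule found 58 of 55536 gene rows, of which 14 belonged to the α cluster, 22 to the β cluster and 22 to the γ cluster. They carried 57 symbols, because Pcdha11 stood on 2 rows. The row with the identifier ENSMUSG00000007440.10 began at base 37005203, close to where RefSeq (GRCm38.p6) starts Pcdha10, at 37005320, and the row ENSMUSG00000102206.5 began at 37010712, close to the RefSeq start of Pcdha11 at 37010858. The symbol Pcdha11 is kept below as the files give it, with the identifier beside it. All members lay on the plus strand of chromosome 18 of mm10, the α cluster from 36930184 to 37187661, the β cluster from 37264938 to 37524479 and the γ cluster from 37661793 to 37841873.

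Protocadherins are cell-surface proteins of the cadherin superfamily, and the clustered ones bind the same isoform on a neighbouring membrane. In each neuron a small set of the variable α, β and γ genes is switched on by a largely random choice of promoters, which is thought to give the cell a surface identity used in self-avoidance of its branches. Each variable α or γ exon is spliced to constant exons shared by its cluster, which encode the common intracellular end, whereas each β gene encodes its protein in an exon of its own. The C-types at the 3′ end of the α and γ clusters (Pcdhac1, Pcdhac2, Pcdhgc3, Pcdhgc4 and Pcdhgc5) are regulated apart from the variable genes. Pcdhac2 is known as the isoform of serotonergic neurons, and Pcdhgc4 as the isoform needed for survival of interneurons.

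The series had 1 group, the left cerebral cortex of B6NCrl mice (a C57BL/6 substrain) at 6 months of age, with 2 libraries numbered as biological replicates 1 and 2. Both carried the same donor entry and separate biosample records, so the spread between them may be technical. The labels called the tissue male in one field and gave the sex as not collected in another. No genotype, transgene or treatment was named. Each library started from 20 ng of RNA and was cut and tagged by a transposase (Nextera). Replicate 1 held 51888490 fragments on genes and replicate 2 held 26776276, so that replicate 2 carried the larger counting error. Levels are given as TPM, the abundance of a gene's transcripts scaled by their length and by the library's total, so that they can be compared between genes.

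The tissue label was checked against marker lists. All 4 pan-neuronal, all 4 excitatory, all 3 interneuron, all 4 astrocyte, all 4 oligodendrocyte and all 4 microglial markers were detected, meaning that they had 1 TPM or more in each library. Of the endothelial markers 2 of 3 were detected and of the choroid plexus markers 3 of 4, led by Ttr at 54.34 TPM in replicate 1 and 39.94 TPM in replicate 2. The 3 serotonergic markers were not detected (Tph2 had 0.98 TPM in replicate 1 and 1.14 TPM in replicate 2, Fev 0.26 and 0.11 TPM and Slc6a4 0.01 and 0.08 TPM), nor were the 2 markers of olfactory sensory neurons. In bulk tissue, fewer cells of a type and less RNA per cell cannot be told apart.

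Clustered protocadherin RNA was spread over most members at low levels, with Pcdhgc5 far above the rest. 43 of the 58 members reached 1 TPM in both libraries, 11 of 14 in the α cluster, 14 of 22 in the β cluster and 18 of 22 in the γ cluster. The same threshold was met by 24.8% of all gene rows and 56.5% of protein coding genes. The 43 detected members had a median TPM of 2.64, against 12.6 TPM for all 13800 detected genes. Over all 58 members the median was 2.04 TPM, with 1.665 TPM in replicate 1 and 1.97 TPM in replicate 2. By cluster the median was 2.14 TPM for α, 1.40 TPM for β and 2.80 TPM for γ. In replicate 1 alone the α and β medians were close, at 1.485 and 1.465 TPM. 5 members had a mean of at least 5 TPM, and 12 stayed under 1 TPM on average. Together the members held 36993 fragments in replicate 1 and 17884 in replicate 2, which was 0.0713% and 0.0668% of all fragments on genes.

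**Figure D1:**
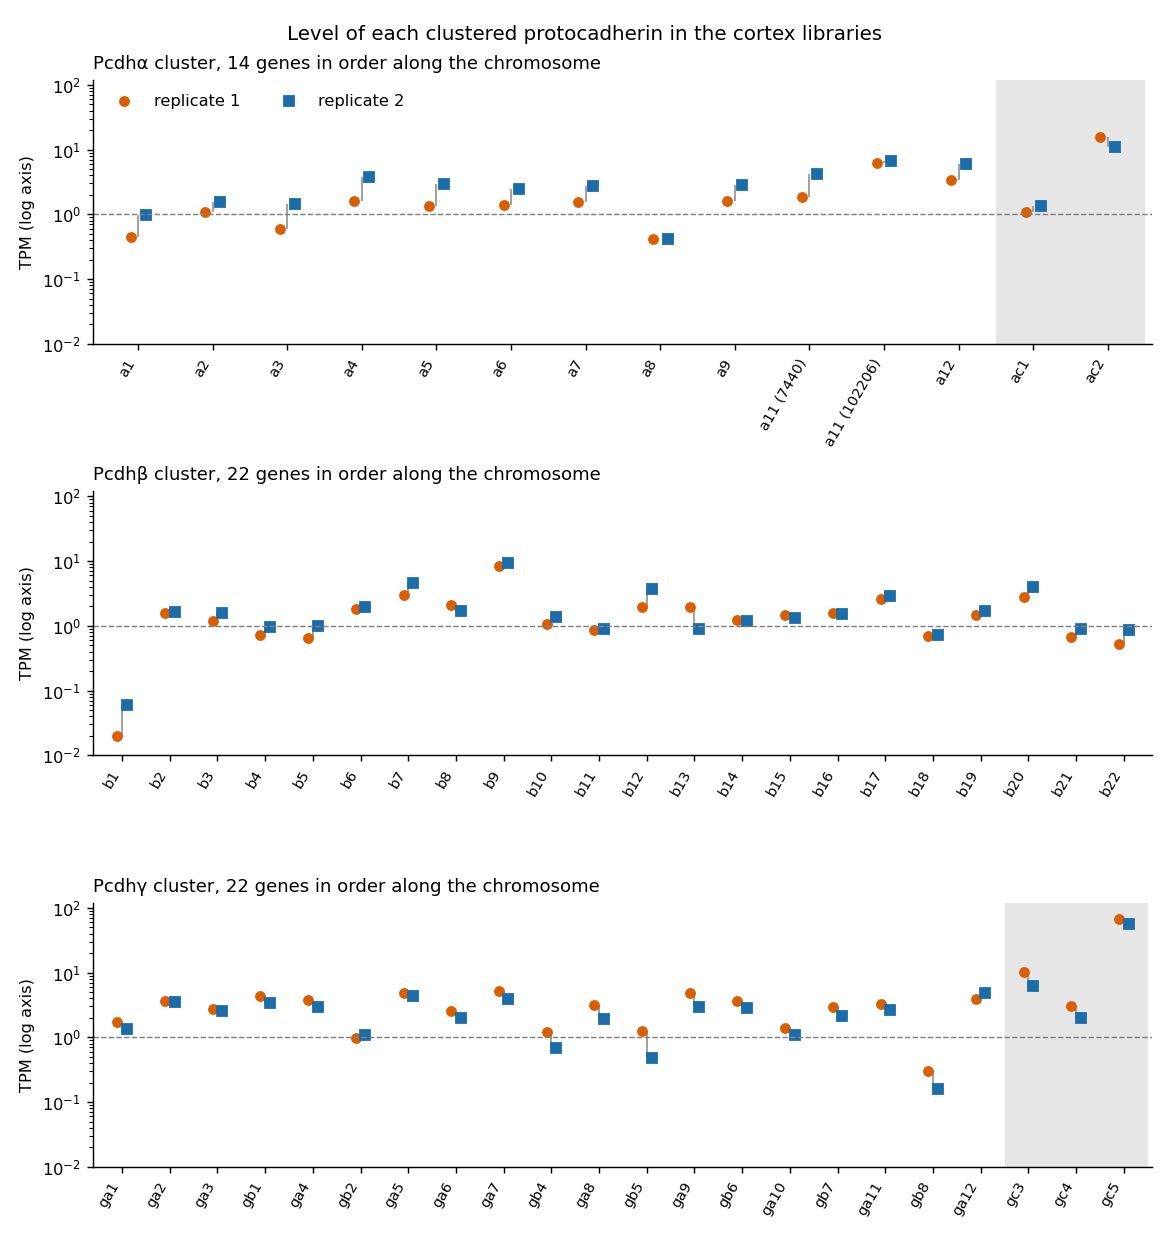
TPM of each of the 58 members in replicate 1 (circles) and replicate 2 (squares), on a log axis, in order along the chromosome, with grey lines joining the libraries, the C-types shaded and a dashed line at 1 TPM. Pcdhgc5 stands highest in both libraries, most variable members lie between 0.4 and 10 TPM, and Pcdhb1 is lowest; in the α panel the squares lie above the circles for all variable members, by 0.01 TPM for Pcdha8.

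Among the C-types, Pcdhgc5 led by a wide margin. It had 68.05 TPM in replicate 1 and 56.21 TPM in replicate 2 (mean 62.1 ± 8.37, SD, n = 2), from 11624 and 4946 fragments. Replicate 1 was the higher, and 2300 of all gene rows had a higher mean TPM. Pcdhac2 came next with 15.50 TPM in replicate 1 and 11.02 TPM in replicate 2 (mean 13.3 ± 3.17). Its level stood apart from the serotonergic markers given above, all of which were near or below 1 TPM. Pcdhgc3 had 10.23 TPM in replicate 1 and 6.12 TPM in replicate 2 (mean 8.18 ± 2.91), again higher in replicate 1. Pcdhgc4 had 3.05 and 1.99 TPM in the same order (mean 2.52 ± 0.75). Pcdhac1 was the lowest C-type, at 1.08 TPM in replicate 1 and 1.36 TPM in replicate 2 (mean 1.22 ± 0.20), and the only C-type with the lower level in replicate 1. The order Pcdhgc5, Pcdhac2, Pcdhgc3, Pcdhgc4, Pcdhac1 was the same in both libraries. Pcdhgc5 stood 4.39 times above Pcdhac2 in replicate 1 and 5.10 times in replicate 2, and 22.3 and 28.2 times above Pcdhgc4. Pcdhac2 stood 14.4 times above Pcdhac1 in replicate 1 and 8.10 times in replicate 2.

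The 12 variable α members, which encode receptors that share the α constant intracellular end, lay between 0.415 and 6.49 TPM on average. The Pcdha11 row ENSMUSG00000102206.5 was the highest of them, with 6.27 TPM in replicate 1 and 6.71 TPM in replicate 2. Of this, 4.11 and 4.42 TPM were assigned to an annotated transcript of 625 bases that drew only 76.3 and 45.3 fragments of the 473 and 287 given to the gene. Pcdha12 followed with 3.41 TPM in replicate 1 and 5.93 TPM in replicate 2. The lowest were Pcdha8, at 0.41 and 0.42 TPM, and Pcdha1, at 0.45 and 0.96 TPM. Across the 12 genes, mean TPM went up along the cluster towards the C-types (Spearman's rho 0.69 across genes, n = 12, with 0.73 in replicate 1 and 0.66 in replicate 2). The genes share libraries and constant exons and are not independent points.

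The β members had a median of 1.465 TPM in replicate 1 and 1.46 TPM in replicate 2. That was near the 1.485 TPM of the variable α members in replicate 1 and below their 2.78 TPM in replicate 2. It was below the 3.18 and 2.55 TPM of the variable γ members in both libraries. Pcdhb9 was the highest β member, with 8.34 TPM in replicate 1 and 9.23 TPM in replicate 2, a level that differed little between the libraries. Pcdhb7 had 3.0 TPM in replicate 1 and 4.61 TPM in replicate 2, and Pcdhb20 had 2.76 and 3.96 TPM. Replicate 2 was the higher for both. At the other end of the means, Pcdhb1 drew 2 fragments in replicate 1 and 3 in replicate 2 (0.02 and 0.06 TPM), too few to compare, and Pcdhb22 had 0.52 and 0.87 TPM. The remaining 17 members lay between the means of Pcdhb22, 0.695 TPM, and Pcdhb20, 3.36 TPM. There was no trend along the β cluster, with a rho of -0.04 across 22 genes that was -0.08 in replicate 2 alone and 0.03 in replicate 1 alone.

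The variable γ members fall into an A and a B subfamily by the sequence of their variable exons, and the A genes were the more abundant. The 12 γA genes summed to 40.89 TPM in replicate 1 and 33.80 TPM in replicate 2, and the 7 γB genes to 14.57 and 10.86 TPM. The γA share of variable γ TPM was 73.7% in replicate 1 and 75.7% in replicate 2. Since the subfamilies differ in size, the sums do not compare single genes. The median by gene was 3.44 TPM in replicate 1 and 2.77 TPM in replicate 2 for γA, and 1.25 and 1.07 TPM for γB. After Pcdhgc5 and Pcdhgc3, the next highest γ member by mean TPM was Pcdhga5, at 4.88 TPM in replicate 1 and 4.33 TPM in replicate 2. The lowest by mean TPM were Pcdhgb8, annotated as a polymorphic pseudogene, at 0.30 and 0.16 TPM, and Pcdhgb5, at 1.25 and 0.48 TPM. In both, replicate 1 was the higher. All 12 γA genes passed 1 TPM in both libraries, as did 3 of the 7 γB genes. Mean TPM of the variable γ genes had a rho of -0.14 with their order along the chromosome (n = 19).

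The γ cluster held most of the clustered protocadherin RNA in both libraries. Its summed level was 136.8 TPM in replicate 1 and 109.0 TPM in replicate 2 (mean 123 ± 19.7), against 38.2 and 48.3 TPM for the α cluster (43.2 ± 7.18) and 38.2 and 44.6 TPM for the β cluster (41.4 ± 4.52). The share of the γ cluster was 64.2% of member TPM in replicate 1 and 54.0% in replicate 2. The C-types made up 59.5% of γ TPM in replicate 1 and 59.0% in replicate 2, a share that moved by less than 1 percentage point. In the α cluster their share was 43.4% in replicate 1 and 25.6% in replicate 2. Counted in fragments, the C-types held 51.4% of the α cluster in replicate 1 (95% Clopper-Pearson interval 50.3 to 52.6) and 30.0% in replicate 2 (28.7 to 31.3). These intervals take each fragment as independent and its assignment as known. No molecular identifiers were used, so copies of the same molecule may count more than once, and the intervals may be too narrow. The α C-types summed to 16.58 TPM in replicate 1 and 12.38 TPM in replicate 2, while the variable α genes summed to 21.59 and 35.94 TPM. The higher C-type sum in replicate 1 was carried by Pcdhac2, since Pcdhac1 was the lower there, as most variable α genes were.

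**Figure D2:**
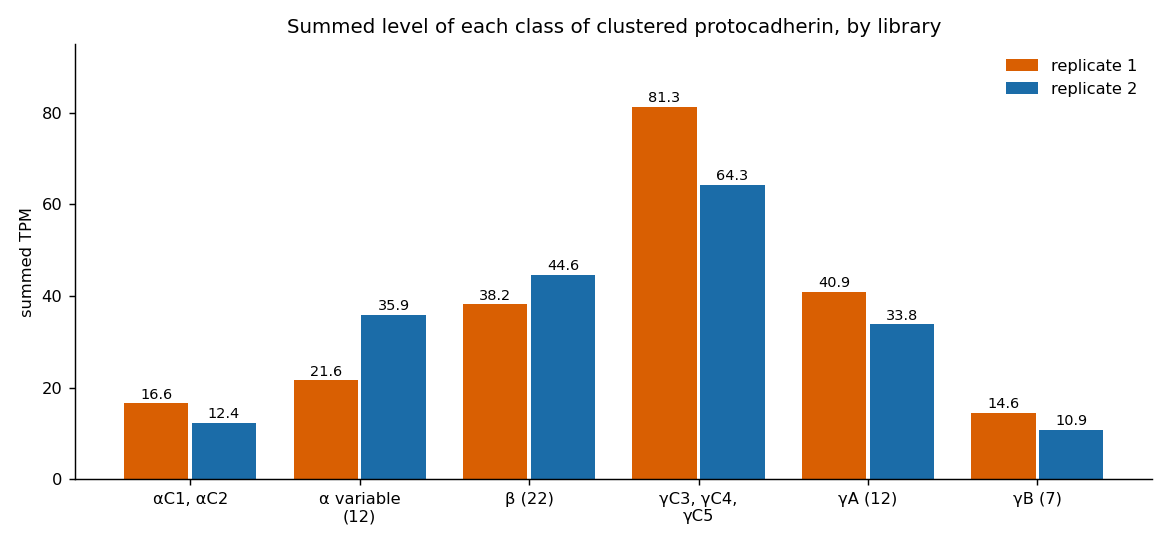
Summed TPM of each class of clustered protocadherin in replicate 1 (left bar) and replicate 2 (right bar), with the value above each bar and the number of genes in brackets. The γ C-types are highest in both libraries, and only the variable α and the β genes have the lower sum in replicate 1.

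The libraries were set against each other gene by gene, with expected counts tested by an exact binomial test at TMM-scaled library sizes and adjusted by Benjamini-Hochberg over 14656 genes (threshold 0.05). With 1 library on each side this compares these libraries and not conditions. The rank order of the members was similar, with a rho between the libraries of 0.86 over 58 members, 0.96 within α, 0.87 within β and 0.96 within γ. Of the 56 members tested, which left out Pcdhb1 and Pcdhgb8, 21 were called higher in replicate 1 and 13 lower. Over all genes 36.4% were called higher and 26.2% lower, and 62.6% in either direction, so that the 34 called of 56 members came close to the share of genes at large. The direction, however, ran by cluster. Among the 12 variable α genes 10 were called lower in replicate 1 and none higher, among 21 β genes 2 were called higher and 3 lower, and among 18 variable γ genes 15 were called higher and none lower. Of the 5 C-types 4 were called higher. Members of the α cluster share constant exons, as do those of the γ cluster, so calls within each cluster are not independent. The median log2 ratio was -0.69 for the variable α genes, -0.04 for the β genes and 0.48 for the variable γ genes, beside 0.03 for all genes tested.

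**Figure D3:**
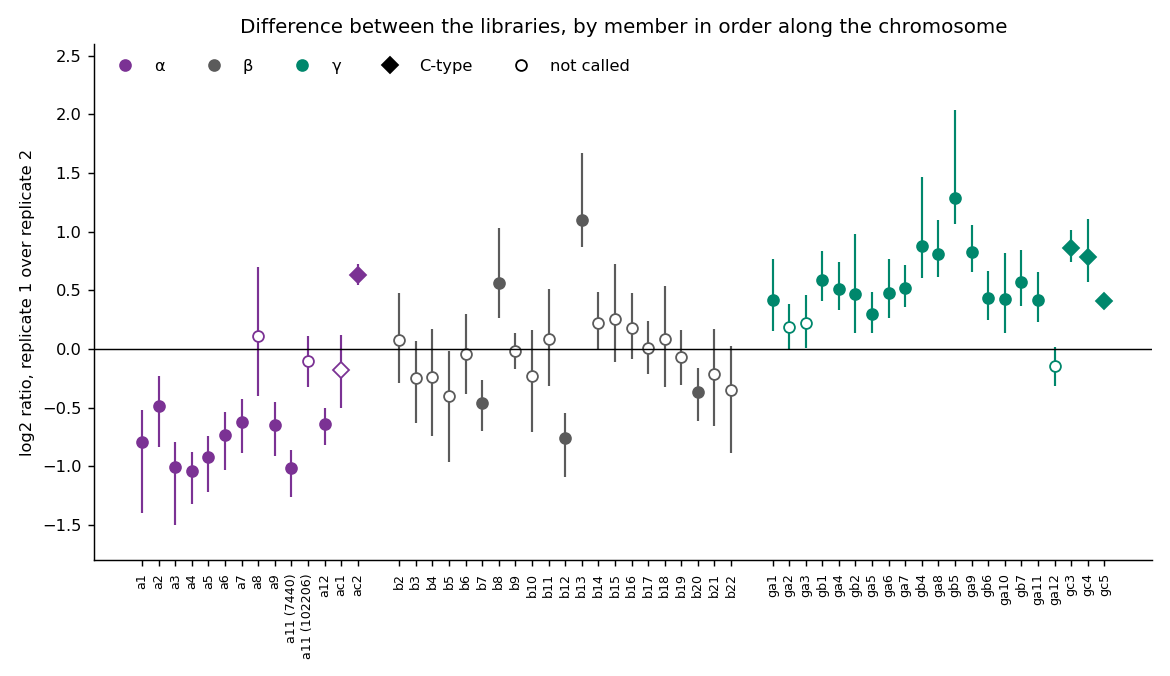
Log2 ratio of replicate 1 over replicate 2 for the 56 members tested, in order along the chromosome, with 95% intervals of the counts (points include a pseudocount of 0.5 CPM, the intervals do not). Filled symbols are called by the binomial test and diamonds are C-types. The α genes lie mostly below 0, the β genes on both sides and the γ genes above 0 except Pcdhga12.

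At 1.5-fold or more, 9 members were called higher in replicate 1 and 10 lower, where 17.2% of all genes were called higher and 3.22% lower. Pcdha4 had the largest difference downward, with 1.62 TPM in replicate 1 and 3.79 TPM in replicate 2 (317 and 383 fragments, log2 ratio -1.04, 95% interval -1.32 to -0.88). The Pcdha11 row ENSMUSG00000007440.10 had 1.83 TPM in replicate 1 and 4.18 TPM in replicate 2, and its log2 ratio was -1.01. Pcdha3 stood at 0.59 TPM in replicate 1 and 1.43 TPM in replicate 2, with an interval of -1.50 to -0.79. In these 3 variable α receptors replicate 1 held less than replicate 2 by about the same factor. Pcdha5 (1.35 and 2.94 TPM, log2 ratio -0.92), Pcdha1 (0.45 and 0.96 TPM, -0.79), Pcdha6 (1.41 and 2.48 TPM, -0.73), Pcdha9 (1.62 and 2.86 TPM, -0.64), Pcdha12 (-0.64) and Pcdha7 (1.56 and 2.70 TPM, -0.62) followed. Pcdha2 was called lower under that fold, at 1.07 TPM in replicate 1 and 1.54 TPM in replicate 2. The 2 variable α genes not called were Pcdha8 (log2 ratio 0.11, interval -0.40 to 0.70) and the Pcdha11 row ENSMUSG00000102206.5 (-0.10, interval -0.32 to 0.11).

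The variable γ genes ran the other way, with log2 ratios from -0.15 to 1.29. Pcdhgb5 had 1.25 TPM in replicate 1 and 0.48 TPM in replicate 2, from 226 and 44.4 fragments, and the largest log2 ratio, 1.29 (interval 1.06 to 2.04). Pcdhgb4, at 1.19 TPM in replicate 1 and 0.68 TPM in replicate 2, had a log2 ratio of 0.88. For Pcdhga9 the levels were 4.77 TPM in replicate 1 and 2.90 TPM in replicate 2, with a log2 ratio of 0.82. These γ genes were all higher in replicate 1, as was Pcdhga8 (3.18 and 1.94 TPM, log2 ratio 0.81). Summed over its transcripts, Pcdhgb1 was higher there too (4.30 and 3.42 TPM, 0.59). Pcdhga2, Pcdhga3 and Pcdhga12 were the variable γ genes tested and not called, and Pcdhga12 was the only one with a log2 ratio below 0, at 3.91 TPM in replicate 1 and 4.79 TPM in replicate 2. Pcdhgb2 was called higher in replicate 1 by its fragments (174 and 67.2), yet its TPM was the lower there, at 0.96 against 1.07 in replicate 2.

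The 3 C-types of the γ cluster ran in the direction of the variable γ genes, and the 2 of the α cluster differed from each other. Pcdhgc3 had a log2 ratio of 0.86 (interval 0.74 to 1.02), Pcdhgc4 of 0.78 (0.57 to 1.11), Pcdhac2 of 0.63 (0.54 to 0.73) and Pcdhgc5 of 0.41 (0.36 to 0.46), all called higher in replicate 1. Pcdhac2 shares its constant exons with the variable α genes, which were mostly lower in that library. Pcdhac1 was not called (log2 ratio -0.17, exact binomial test with Benjamini-Hochberg adjustment, adjusted p = 0.28). Of the β genes, which have no constant exons, Pcdhb13 differed most, at 1.94 TPM in replicate 1 and 0.89 TPM in replicate 2 (276 and 65 fragments, log2 ratio 1.10, interval 0.87 to 1.67). In the opposite direction, Pcdhb12 had 1.93 TPM in replicate 1 and 3.74 TPM in replicate 2 (log2 ratio -0.76). Neighbouring β genes were thus called in opposite directions, while Pcdhb9, the most abundant of them, had a log2 ratio of -0.01 (interval -0.17 to 0.14). The other called β genes were Pcdhb8, higher in replicate 1 (0.56), and Pcdhb7 (-0.46) and Pcdhb20 (-0.37), lower there.

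Other measures were set beside these differences. The median GC content of member transcripts was 47.5% for α, 46.8% for β and 52.8% for γ, against 50.8% for all genes tested. After removal of the trend of log2 ratios on GC content and length, the median stood at -0.75 for the variable α genes, -0.04 for β and 0.34 for the variable γ genes. Before that removal the medians were -0.69, -0.04 and 0.48 in the same order. The part of GC content and length in the differences was not tested. Neuronal markers also differed, but not in 1 direction. Rbfox3 had 234.7 TPM in replicate 1 and 125.4 TPM in replicate 2 and Eno2 748.5 and 427.1 TPM, while Snap25 had 2359 and 2730 TPM and Syt1 388.6 and 372.4 TPM. The excitatory marker Slc17a7 had 82.7 and 37.2 TPM, while the excitatory marker Camk2a had 847.6 and 1083 TPM. The 4 pan-neuronal markers summed to 3731 TPM in replicate 1 and 3655 TPM in replicate 2, and the 4 excitatory markers to 950.0 and 1137 TPM. The 3 interneuron markers summed to 152 and 211 TPM, with 1, Slc32a1, called higher in replicate 1 (12.3 and 7.43 TPM) and 2 called lower. The 4 astrocyte markers summed to 329 and 408 TPM, with 1, Aldh1l1, called higher (38.1 and 32.4 TPM) and 3 called lower. The part of cell makeup in the protocadherin differences was not tested. Under scaling by total count the median of all genes moved by 0.12 to -0.09, and 18 members were called in each direction, with 12 variable γ genes higher and 1 (Pcdhga12) lower, and 11 variable α genes lower. Over all genes that scaling put 41.8% of calls in the higher direction, against 58.1% with TMM.

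How the α and γ members share sequence bears on how firmly a fragment can be given to a member. The longest annotated coding transcript of each α gene had 4 exons, of which 3 were constant exons of 2860 bases in all, 53.5% of the median transcript length of 5350 bases. In the γ genes 3 constant exons spanned 2116 bases, 44.8% of the median length of 4721.5 bases. The longest coding transcript of each β gene had 1 exon and no constant part. Some members were assigned mostly to shorter transcripts with less of the constant part, such as the 625-base form of Pcdha11 given above, which holds 420 constant bases. Of all runs of 31 bases in a member's transcripts, a median of 35.7% in α, 88.2% in β and 51.0% in γ occurred in no other annotated gene. Pcdhga10 had the smallest such part, 0.617%, and Pcdha4 the next, 7.77%. Other members shared 45.4% of the runs of Pcdhga10 and 57.3% of those of Pcdha4. The remaining runs of these genes occurred only in annotated genes outside the members. Pcdhb12, with 33.1%, was the lowest of the β genes.

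The authors' quantifier deposited a posterior SD for each count, which measures how uncertain the assignment of fragments is. As a percent of the posterior mean count, its median was 4.69% in replicate 1 and 7.33% in replicate 2 for α, 3.16% and 5.29% for γ, and 0.172% and 0.288% for β. The median over all genes tested was 0. An SD of at least 5% was reached by 6 α members in replicate 1 and 11 in replicate 2, by 4 and 12 γ members, and by no β member, beside 3.58% and 4.82% of all genes tested. Pcdhgc5 had only 0.494% in replicate 1 and 0.702% in replicate 2, and Pcdhac2 0.913% and 2.17%. In both libraries these 2 abundant C-types had the firmest assignment of their clusters. For Pcdha4 the SD was 9.42% in replicate 1 and 7.93% in replicate 2, and for Pcdhga10 it was 5.49% and 12.6%. The binomial test treats the counts as known and leaves this uncertainty out. When members were instead called where the quantifier's own TPM intervals did not overlap, a rule chosen after seeing the data, 12 were higher in replicate 1 and 13 lower (22.3% and 26.1% of all genes), with 9 variable α genes lower and none higher, and 7 variable γ genes higher and 1 lower, against 15 and 0 by the binomial test.

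**Figure D4:**
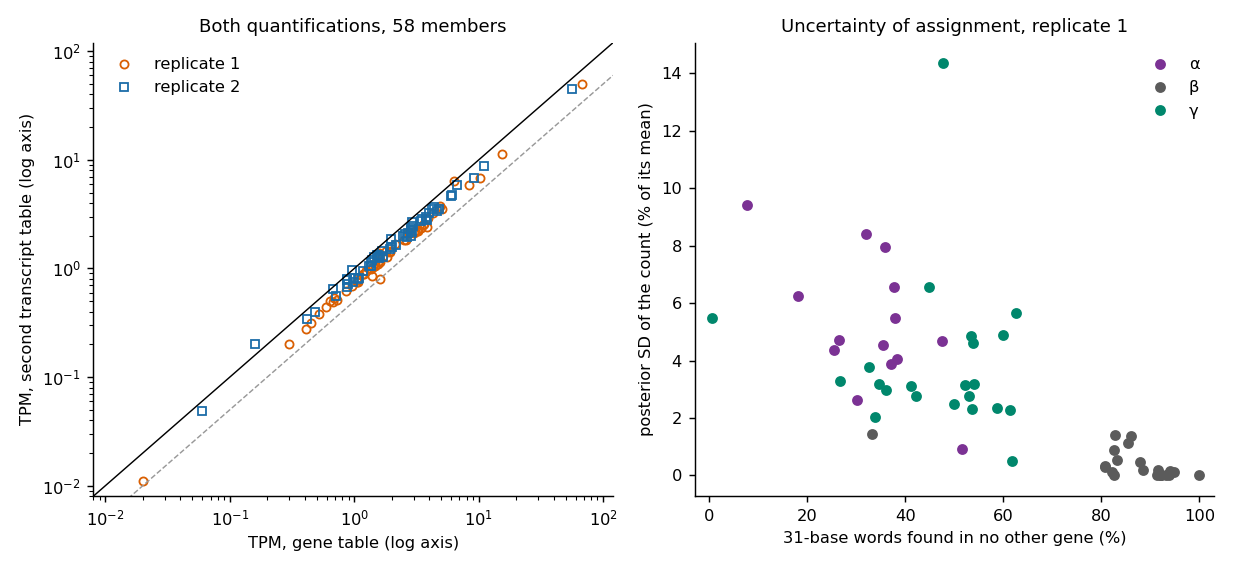
Left, TPM of the members in the gene table (x axis) and in the second transcript table (y axis), both log axes, with a solid line at equality and a dashed line at a 2-fold difference. Right, posterior SD of the count as a percent of its mean in replicate 1 against the percent of 31-base runs found in no other gene; β members, at 33.1% to 100% of such runs, all stay under 2% SD, and α and γ members reach 14.3%.

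A second quantification, made from the read files without the gene table's alignments, ranked the members much alike. No member differed by 2-fold in the same direction in both libraries between the gene table and the second transcript table, where 1.5% of 14966 genes were higher and 4.49% lower in the gene table by that rule. The rho between the quantifications over 58 members was 0.99 in each library. TPM averaged at least 1 over both tables and both libraries in 44 members. Of these, 43 had the higher TPM in the gene table in both libraries, as did 12430 of the 14966 genes. The median log2 ratio of the members was 0.44 in replicate 1 and 0.31 in replicate 2, beside 0.37 and 0.26 for all genes. The largest gap was that of Pcdha4 in replicate 1, with 1.62 TPM in the gene table and 0.793 TPM in the second table (log2 ratio 0.95, with a pseudocount of 0.1 TPM). In replicate 2 Pcdha4 had 3.79 TPM in the gene table and 2.88 TPM in the second. Gm42416, an annotated gene that begins within Pcdha4 and ends in the γ cluster, was given 0 fragments by the gene table and 99.0 by the second table in replicate 1, and none by either table in replicate 2. Counts of the second table called 23 members higher in replicate 1 and 18 lower, beside 37.4% and 31.8% of all genes, and all 21 and 13 members called from the gene table were among them.

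Most of the α and γ RNA was assigned to transcripts that overlap each of the 3 constant exons, in whole or in part. Such transcripts held 98.5% of α TPM in replicate 1 and 99.8% in replicate 2, and 96.9% and 94.8% of γ TPM. Short forms count among them, such as the 625-base form of Pcdha11, which holds 420 of the 2860 constant α bases. Of 22 members with 2 or more annotated transcripts, 16 had the same transcript with the highest TPM in both libraries. In 2 γ genes a transcript without the constant exons took much of the level. Pcdhgb1-202, a processed transcript of 3636 bases, held 59.9% of Pcdhgb1 in replicate 1 and 95.9% in replicate 2. It had 2.57 TPM in replicate 1 and 3.28 TPM in replicate 2, while the complete Pcdhgb1 transcript had 1.72 and 0.14 TPM. In the second table Pcdhgb1-202 had 2.75 and 2.61 TPM. Pcdhgc4-202, a retained intron of 3100 bases, held 46.9% of Pcdhgc4 in replicate 1 and 57.8% in replicate 2. The complete Pcdhgc4 transcript alone stood at 1.62 TPM in replicate 1 and 0.84 TPM in replicate 2. For Pcdhgb2 an annotated retained intron held 0% in replicate 1 and 76.4% in replicate 2, from 0 and 43.6 fragments. Pcdhgc5 was nearly all complete transcript, with 62.67 TPM in replicate 1 and 52.09 TPM in replicate 2 on its 4741-base form.

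Genes known to control or to act with the clustered protocadherins were read in the same test, in which 36.4% of all genes were called higher in replicate 1 and 26.2% lower, the background for each list below. Promoter choice depends on the boundary protein CTCF, on cohesin, which folds the locus into loops, and on DNA methylation. Of 16 such regulators tested, 6 were called higher in replicate 1 and 7 lower. Ctcf, at 18.38 TPM in replicate 1 and 18.87 TPM in replicate 2, and Dnmt3a, a DNA methyltransferase, at 24.41 and 11.90 TPM, were the highest by mean TPM. Dnmt3a had 2097 and 1128 fragments and was not called (log2 ratio 0.07), although its TPM differed. The cohesin subunits Rad21, Smc1a and Smc3 were called lower in replicate 1, with log2 ratios of -0.53, -0.11 and -0.12. Of the alternative subunits, Stag1 was called higher (0.60) and Stag2 lower (-0.27). Stag1 and Pds5a, a cohesin regulator (14.64 TPM in replicate 1 and 4.86 TPM in replicate 2, log2 ratio 0.92), were among those called at 1.5-fold. Dnmt3b, which methylates protocadherin promoters in early mouse development, was at 0.09 TPM in both libraries and was not tested. Zfp274 was not matched by symbol.

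The intracellular ends of the protocadherins are linked to focal adhesion kinases, which they inhibit, and to the WAVE complex, which drives actin branching. Of 19 such partners 12 were called higher in replicate 1 and 4 lower, and under total-count scaling 7 were called higher (28.3% of all genes). Rac1, the GTPase upstream of WAVE, had 396.0 TPM in replicate 1 and 78.9 TPM in replicate 2 (log2 ratio 1.98). Wasf1 (WAVE1) had 121.7 TPM in replicate 1 and 44.1 TPM in replicate 2, with a log2 ratio of 1.61. Src (29.2 and 8.91 TPM, log2 ratio 1.64) and Wasf3 (38.1 and 19.1 TPM, 1.13) were the others called at 1.5-fold, each higher in replicate 1. Brk1, a small WAVE subunit with 236.4 TPM in replicate 1 and 233.9 TPM in replicate 2, was called higher at a log2 ratio of only 0.11. The lowest partner was the receptor Ret, at 0.43 and 0.36 TPM.

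Of the 7 proteases that release protocadherin fragments, ADAM10 and the γ-secretase subunits, 4 were called higher in replicate 1 and 2 lower, none by 1.5-fold. Psenen was the highest, at 167.2 TPM in replicate 1 and 152.3 TPM in replicate 2, Aph1a followed at 42.3 and 30.9 TPM, and Aph1b was the lowest by mean TPM, at 6.93 and 9.36 TPM. The 10 non-clustered δ protocadherins, adhesion proteins with genes of their own outside the clusters, were all detected, with a median of 6.38 TPM in replicate 1 and 7.97 TPM in replicate 2, against 1.665 and 1.97 TPM for the clustered members. Their highest member by mean TPM, Pcdh9, had 24.05 TPM in replicate 1 and 34.19 TPM in replicate 2, below Pcdhgc5 in both libraries. Of the 10, 3 were called higher in replicate 1 and 7 lower, beside 36.4% and 26.2% of all genes. Pcdh1 was the one called higher at 1.5-fold (24.36 and 8.06 TPM, log2 ratio 1.82), and Pcdh20 (5.64 and 12.95 TPM, -0.91) and Pcdh11x (4.53 and 7.88 TPM, -0.75) were called lower. By mean TPM, Pcdh7 was second at 15.1 and 21.2 TPM, and Pcdh18 the lowest at 1.34 and 1.69 TPM.

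Of 8 other recognition molecules of the synapse and cell surface, 3 were called higher in replicate 1 and 2 lower. Cdh2 (N-cadherin) had 24.3 TPM in replicate 1 and 27.7 TPM in replicate 2 and was not called. Nlgn2, the neuroligin of inhibitory synapses, was the one called at 1.5-fold, at 13.4 TPM in replicate 1 and 10.1 TPM in replicate 2 (log2 ratio 0.67). Celsr3, an atypical cadherin, was the lowest, at 1.76 and 2.51 TPM. Dscam, another molecule of neurite self-avoidance, had 4.70 TPM in replicate 1 and 4.86 TPM in replicate 2, and was not called.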

How the data were processed

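Poly(A)+ RNA-seq of left cerebral cortex (2 libraries, 1 group) was analysed from the deposited tables. Expected counts, TPM, isoform percent, posterior SDs and TPM intervals (their level is not stated) in the gene table and first transcript table are the authors' values made from transcriptome alignments, and the estimated counts and TPM of the second transcript table from the read files, per the deposited notes (mm10, GENCODE M21). The sources used here do not give the aligner, the quantifiers or the use of strand. The deposited counts were not normalized; the authors' TPM has a common sum.

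The second transcript table, with 76100574 and 46367538 fragments on genes, was summed by gene. Expected counts were rounded and compared by a two-sided exact binomial test, with effective library sizes from TMM (edgeR 4.0.16, R 4.3.3) and Benjamini-Hochberg adjustment over genes whose mean CPM was 1 or more; intervals are 95% Clopper-Pearson without pseudocount, and log2 ratios use CPM plus 0.5. DESeq2 1.42.0 gave alternative size factors. GC and length trends were removed by lowess (fraction 0.3, statsmodels 0.14.6) over 14645 genes. Exons and 31-base runs came from the annotated transcripts. The test was tested on simulated counts, where 179 of 200 changed genes and 8 unchanged genes of 14656 were called. Those counts were drawn with counting error alone (Poisson), as the test assumes, so they do not give its error rate in these libraries. Order along a cluster is chromosomal, in place of the number in the symbol first planned, because 1 symbol is doubled and the γA and γB genes alternate. Counts planned for promoter motifs were not made, and promoters and proteins of the members are not analysed here. Fragment numbers are given as estimated.

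The members and gene lists were chosen with earlier results of these data known. Named were the C-types, the 3 highest and 2 lowest members of each cluster, members called at 1.5-fold, and the 2 highest, the lowest and the 1.5-fold genes of each list. Some genes under this rule are left out of the text. Pcdha2, Pcdha8, Pcdhb7, Pcdhb8, Pcdhb20, Pcdhga2, Pcdhga3, Pcdhga10, Pcdhga12 and Pcdhgb2 were named outside that rule where not covered by it. So were Rad21, Smc1a, Smc3, Stag2, Dscam and the markers shown. All of these were named after their values were seen. Alternatives were another quantification, scaling, filter, threshold, unit and call rule, and each library alone.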

Additional observations from a re-analysis of the deposited data

How the results depend on the processing

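No paired analysis was possible because the series has 1 group of 2 libraries. With the second transcript table the median TPM was 1.63 over all members, 1.09 in β and 2.11 in γ, and the summed TPM was 34.3 in α, 31.9 in β and 92.8 in γ, all lower than in the gene table. With each library alone the median ran from 1.665 to 1.97 TPM over all members and from 1.46 to 1.465 TPM in β. A threshold of 2 TPM left 20 members detected. The C-type share of γ was 58.1% by expected counts and 57.6% without transcripts under 1000 bases, an alternative chosen after seeing the data. With TPM intervals that do not overlap as the call rule, 12 members were higher in replicate 1. The rho with order along the β cluster was 0.0265 in replicate 1 alone and -0.0751 in replicate 2 alone; along the γ cluster it was -0.118 in the second table and from -0.130 to -0.104 in the libraries alone. Total-count scaling left 7 partners and 1 other recognition gene called higher in replicate 1. For these values the cause was not tested. No called member changed sign under total count, DESeq2 size factors, the other count filters, the second table or removal of GC and length trends. Pcdhgb2, Pcdhga5 and Pcdhga10 lost their call under total count (log2 ratios 0.36, 0.18 and 0.31). Counting limits Pcdhb1 and Pcdhgb8, and 2 libraries limit every SD.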

Other observations

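Other annotated genes lie among the clusters. Taf7, a subunit of the general transcription factor TFIID, sits between the β and γ clusters on the minus strand and had 7.10 TPM in replicate 1 and 5.83 TPM in replicate 2. The antisense gene BC037039, which overlaps the start of Pcdhgc3, had 1.44 TPM in replicate 1 and 1.94 TPM in replicate 2, and Gm26672, on the minus strand across several γ genes, had 0.86 and 1.88 TPM. In the second table BC037039 had 1.553 TPM in replicate 1 and 1.496 TPM in replicate 2. The sources used here do not say whether counting used strand, so reads of such genes and of the protocadherins they overlap may not be separated. Gm37013, annotated from within the α cluster to the γ cluster, drew no fragment in either library, and Gm37388, of the same kind, drew 1.15 in replicate 1 and 1.80 in replicate 2.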
